A study of Mus musculus with 8 samples.

Results

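The 9 genes described here encode receptors through which myeloid and stromal cells sense chemokines and other chemoattractants: the complement anaphylatoxin receptors C3ar1 and C5ar1, the formyl peptide receptors Fpr1 and Fpr2, the chemokine receptors Ccr1, Ccr2, Cx3cr1 and Cxcr4, and the atypical chemokine receptor Ackr3. They were chosen by gene symbol, all 9 were among the 25239 symbols of the count table, and all 9 passed the filter on low counts. Polyadenylated RNA was sequenced from primary cells of the mouse calvaria, the bony cap of the skull, that the labels call osteoblasts. The 4 control libraries are labelled WT and come from littermates, and the 4 others carry the genotype label KO(OSX-SphK2). Sphk2 encodes sphingosine kinase 2, which makes the lipid mediator sphingosine 1-phosphate, and Osx, the product of Sp7, drives cells towards the osteoblast fate. How the deletion was made, the strain, age and sex of the mice and the number of animals behind a library are not given in the sources used here. Each group's libraries are numbered 1 to 4, and the study's title asks how osteoblasts act on neutrophil development.

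Chemoattractant receptors are G protein-coupled receptors that mostly signal through the Gi class of G proteins, and their activation directs the movement of leukocytes along gradients of ligand. C3ar1 and C5ar1 bind the fragments C3a and C5a that are cut from complement proteins, and the formyl peptide receptors bind peptides with an N-formylated methionine, which come from bacteria and mitochondria. Cxcr4 and Ackr3 share the ligand Cxcl12, a chemokine of bone marrow stroma that holds neutrophils and stem cells in the marrow, and Ackr3 removes that ligand without activating G proteins.

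Fpr1 and Fpr2 are neighbours on chromosome 17 of GRCm38. Fpr1 runs from 17876471 to 17883940 on the minus strand and Fpr2 from 17887824 to 17893952 on the plus strand, so their annotated starts face away from each other across 3884 bases. Ccr1 (chromosome 9, 123962124 to 123968692, minus strand) and Ccr2 (chromosome 9, 124101950 to 124113557, plus strand) are placed in the same way across 133258 bases. The 250 bases before the RefSeq start of 4 genes are given here, in the order Fpr1 (chr17:17883940-17884189, minus strand), Fpr2 (chr17:17887574-17887823, plus strand), Ccr1 (chr9:123968693-123968942, minus strand) and Cxcr4 (chr1:128592300-128592549, minus strand), on GRCm38.p6 and read 5′ to 3′ on the gene's strand. The first 3 are shown because these genes had lower counts together in the libraries numbered 1 to 3, and Cxcr4 because it did not. C5ar1 also had lower counts there and is not shown. Capitals mark matches on either strand to GAGGAA, the core bound by PU.1 and related ETS factors, to TGANTCA, the site of AP-1, to TTNNGCAA, that of C/EBP factors, to the GC-box letters GGGCGG and to TATAAA, and matches may overlap.
Fpr1: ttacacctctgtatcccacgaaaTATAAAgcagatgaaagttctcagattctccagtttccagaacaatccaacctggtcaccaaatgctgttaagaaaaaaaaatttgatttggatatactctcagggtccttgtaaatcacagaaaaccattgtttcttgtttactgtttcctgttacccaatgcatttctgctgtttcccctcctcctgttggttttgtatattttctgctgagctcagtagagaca
Fpr2: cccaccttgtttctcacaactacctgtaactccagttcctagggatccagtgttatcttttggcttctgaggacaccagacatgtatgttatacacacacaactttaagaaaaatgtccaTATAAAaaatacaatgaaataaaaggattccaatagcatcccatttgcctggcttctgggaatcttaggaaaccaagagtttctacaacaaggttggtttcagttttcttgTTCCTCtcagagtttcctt
Ccr1: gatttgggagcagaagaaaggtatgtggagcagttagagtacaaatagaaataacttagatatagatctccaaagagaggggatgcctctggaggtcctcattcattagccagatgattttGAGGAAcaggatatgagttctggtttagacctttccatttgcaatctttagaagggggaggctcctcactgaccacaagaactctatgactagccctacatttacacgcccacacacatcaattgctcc
Cxcr4: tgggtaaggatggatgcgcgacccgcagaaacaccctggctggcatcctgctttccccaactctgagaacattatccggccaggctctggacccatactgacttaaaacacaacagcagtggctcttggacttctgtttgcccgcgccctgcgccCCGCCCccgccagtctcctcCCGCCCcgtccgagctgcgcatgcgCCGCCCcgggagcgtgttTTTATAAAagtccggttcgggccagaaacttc

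The windows of Fpr1, Fpr2 and Ccr1 were poor in CpG, with 1, 0 and 1 CpG in 250 bases, whereas that of Cxcr4 held 19, against a median of 6 over 32851 RefSeq windows of the same length. GAGGAA or its reverse complement occurred in the windows of Fpr2 and Ccr1, at 14 and 124 bases before the start, and in 23.3% of all windows. GGGCGG occurred 3 times in the window of Cxcr4 and in 32.7% of all windows, and TATAAA in those of Cxcr4, Fpr1 and Fpr2 and in 12.4% of all windows. No match to TGANTCA (6.75% of all windows) or TTNNGCAA (9.56%) was present in these 4 windows. A match is a stretch of letters and not a shown binding site. Among the windows not shown, that of C5ar1, which also fell in numbers 1 to 3, held 2 CpG and no match to any of these motifs. The window of Ccr2, which rose there, held 1 CpG, and those of Cx3cr1, C3ar1 and Ackr3 held 4, 5 and 7. Annotated exons of the same gene cover 233 bases of the Ccr2 window, all 250 of the Cx3cr1 window and 28 of the C5ar1 window. These windows are thus partly or wholly not upstream sequence under that annotation. Among the windows as taken, few CpG were not particular to the genes that fell.

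Library totals ran from 14347495 to 19065421 counts, and levels are given below as CPM, the count relative to the TMM-scaled library total. Sphk2, the targeted gene, had a range of 64.2 to 134 CPM over the controls, against 69.7 to 131 over the libraries labelled knockout (log2 fold change −0.046, SE 0.30). Its count thus does not check the labels, and 539 of its exon bases are shared with the antisense gene Dbp and 373 with Rpl18. The libraries numbered 4 stood apart in both groups, with 34.2% of the 12837 tested genes above and 33.8% below all 6 others, and values are therefore also given for numbers 1 to 3 alone. The 23 macrophage markers, all tested, had summed levels of 36822 to 61683 CPM, and the 14 osteoblast markers, of which 11 were tested, 4416 to 17332 CPM. Of 11 neutrophil markers 9 stayed under 1 CPM in every library, among them Ly6g, Elane and Mpo, and the lymphocyte markers summed to at most 0.265 CPM. The summed osteoclast markers reached 10302 CPM for control 4 and 6807 for knockout-labelled 4, against 243 to 348 elsewhere. In such bulk RNA, fewer cells of a type and less RNA per cell cannot be told apart.

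Measured per kilobase of annotated exon, so that genes of different length can be compared, the anaphylatoxin receptors had the highest medians over the 8 libraries, while Cxcr4 was the highest of the 9 in both libraries numbered 4. C5ar1 stood at 87.2 to 158 CPM per kilobase and C3ar1 at 100 to 132, with overlapping ranges over the 8 libraries. Fpr1 (26.5 to 77.2), Cxcr4 (40.2 to 195), Cx3cr1 (8.42 to 51.5), Fpr2 (5.83 to 76.1) and Ccr1 (7.73 to 45.6 CPM per kilobase) followed by their medians, and each overlapped the next. Ccr2 (0.625 to 3.04) and Ackr3 (0.332 to 3.17 CPM per kilobase) were lowest and overlapped each other. Only between C3ar1 and Fpr1 and between Ccr1 and Ccr2 did neighbours in this order not overlap.

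**Figure D1:**
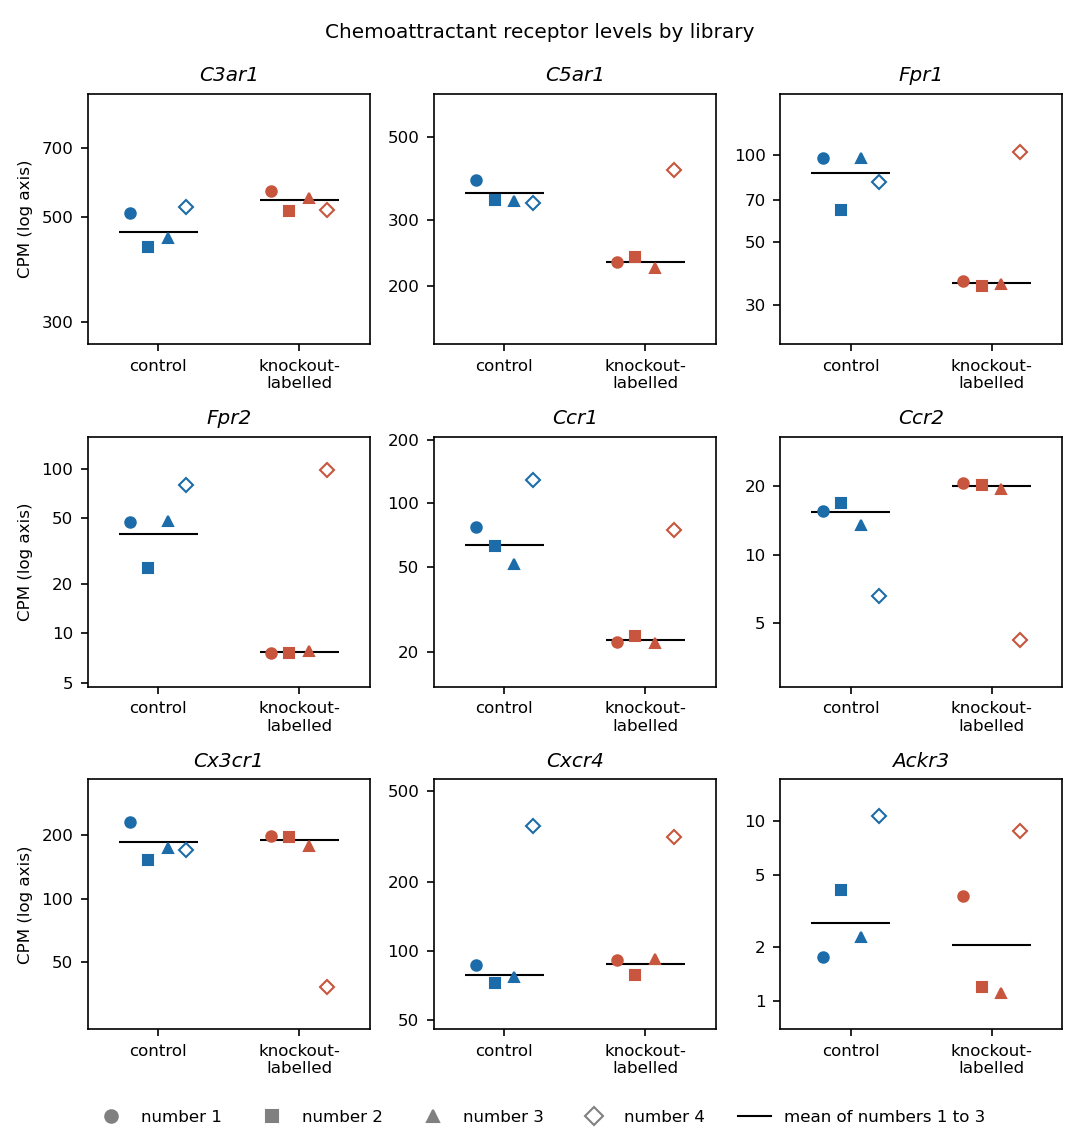
CPM of each receptor gene on a log axis, by group, with 1 point per library, an open diamond for the libraries numbered 4 and a line at the mean of numbers 1 to 3. Fpr1, Fpr2, Ccr1 and C5ar1 of the libraries labelled knockout lie below all controls in numbers 1 to 3, and Cxcr4 stands at 315 and 352 CPM in the libraries numbered 4 against 72.7 to 92.7 CPM elsewhere.

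Over all 8 libraries no receptor gene passed the threshold between the groups. With edgeR, adjusted p-values were 0.986 or higher, 7 of 9 log2 fold changes were negative, and their median was −0.33 against −0.016 over all genes tested. At an unadjusted p under 0.05 there was 1, Ccr1, where 4.92% of all genes (631) reached that. Over all genes 0% passed (0 of 12837), DESeq2 called 176 genes and limma-voom 0, and neither called a receptor gene of the 9. None of the 9 had groups without overlap, against 1.27% of all genes lower and 2.32% higher. When same-numbered libraries were paired, 1 of the 9 fell, Ccr1, and 0 rose, beside 2.49% of all genes called (1.18% lower and 1.31% higher).

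With numbers 1 to 3 alone 4 receptor genes fell, Fpr2, Ccr1, Fpr1 and C5ar1, and 1 rose, Ccr2. The background there was 14.1% of 12919 genes called, 6.29% lower and 7.78% higher, and 16.4% lower and 18.2% higher without overlap between the groups. Paired by number, 24.2% of all genes (11.9% lower and 12.3% higher) and 6 of the 9 receptor genes passed, C3ar1 in addition. Fpr2, Ccr1, Fpr1 and C5ar1 were lower and Ccr2 and C3ar1 higher without overlap. The exact two-sided permutation test of 3 against 3 libraries gave p = 0.1 for each of these 6, the smallest p it allows. The calls below are edgeR's over all genes. The 4 falls held when any 1 of the 6 libraries was left out, with the highest adjusted p between 0.00925 and 0.0256, while Ccr2's rise was lost in 5 of 6 such fits (adjusted p 0.0203 to 0.134 over the 6).

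**Figure D2:**
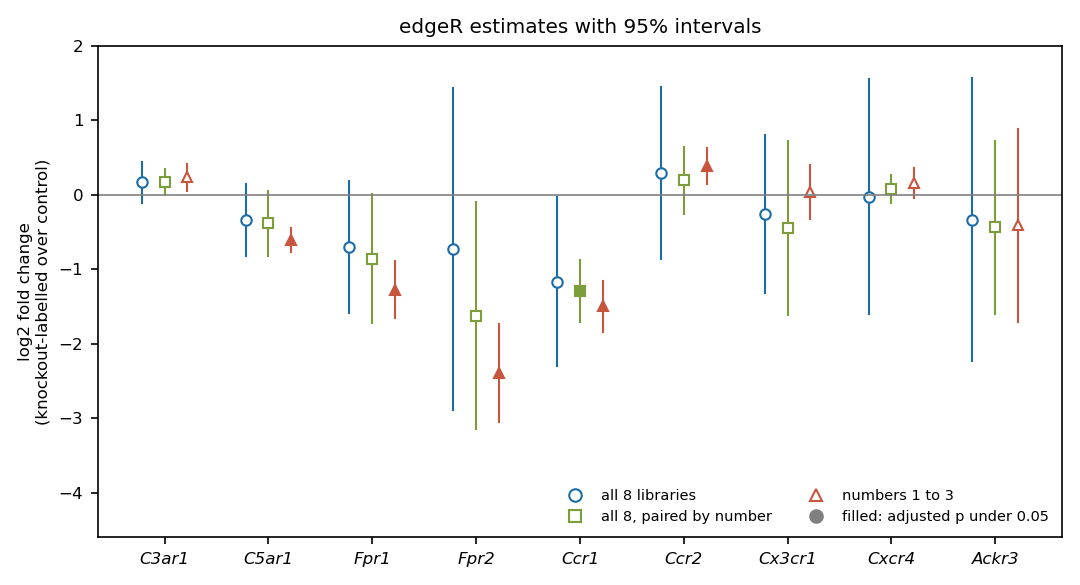
Log2 fold change of each receptor gene (libraries labelled knockout over control) with its 95% interval, from edgeR with all 8 libraries, with all 8 paired by number, and with numbers 1 to 3. Filled symbols passed the adjusted threshold, which were Ccr1 in the paired fit and C5ar1, Fpr1, Fpr2, Ccr1 and Ccr2 in numbers 1 to 3.

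Fpr2, a formyl peptide receptor that also binds serum amyloid A and annexin A1, showed the largest difference among the 9 in numbers 1 to 3 and in the paired fit, while over all 8 libraries unpaired that was Ccr1. Controls 1 to 4 held 47.6, 25.1, 48.1 and 80.3 CPM of Fpr2, and knockout-labelled 1 to 4 held 7.57, 7.55, 7.78 and 98.6. The first 3 knockout-labelled libraries thus lay within 0.3 CPM of each other and below every control, while knockout-labelled 4 was the highest of all. For numbers 1 to 3 the control mean was 40.2 ± 13.1 CPM (SD, n = 3), and the mean of the libraries labelled knockout 7.63 ± 0.127 (SD, n = 3). There Fpr2 fell by 2.39 on the log2 scale (SE 0.27, edgeR adjusted p = 0.00298), whereas the value for all 8 libraries was −0.73 (SE 0.94). Of the stretches of 50 bases in its transcripts, 31.5% also occur in transcripts of other genes, chiefly Gm5966 and Fpr3, so its count is uncertain, and 48 of its exon bases are annotated to Fpr3 as well. Fpr3 itself had 0 counts in all 8 libraries.

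Fpr1, the high-affinity formyl peptide receptor of phagocytes, followed the same order. Controls 1 to 4 held 97.7, 64.6, 97.7 and 80.8 CPM of it, against 36.5, 35.1, 35.6 and 102 for knockout-labelled 1 to 4. Again knockout-labelled 4 was above all controls and the other 3 below them. The means over numbers 1 to 3 were 86.7 ± 19.1 and 35.7 ± 0.698 CPM (SD, n = 3 each), and Fpr1 fell by 1.28 (log2, SE 0.16, edgeR adjusted p = 0.00322). Only 0.0784% of its 50-base stretches are shared with another gene, namely Fpr2.

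C5ar1 (chromosome 7, 16246743 to 16259540, minus strand), the main signalling receptor for C5a, measured 385, 339, 338 and 334 CPM for controls 1 to 4. The libraries labelled knockout measured 231, 239, 224 and 407 CPM. As for the formyl peptide receptors, 3 were below every control and knockout-labelled 4 above every control. Over numbers 1 to 3 the means were 354 ± 26.5 and 232 ± 7.72 CPM (SD, n = 3 each), or 65.4% of control, and C5ar1 fell by 0.61 (log2, SE 0.07, edgeR adjusted p = 0.00103). With the summed macrophage marker counts as library size its adjusted p was 0.0535, at a log2 fold change of −0.47.

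C3ar1 (chromosome 6, 122847138 to 122856161, minus strand), the receptor for C3a, was steady. It measured 509, 432, 453 and 526 CPM for controls 1 to 4, and knockout-labelled 1 to 4 measured 569, 516, 549 and 518. The groups overlapped over all 8 libraries, with a log2 fold change of 0.16 and an interval of −0.11 to 0.44. Without number 4 they did not overlap, at 465 ± 40.0 against 544 ± 26.7 CPM (SD, n = 3 each), but the log2 fold change of 0.23 (SE 0.08) did not pass (edgeR adjusted p = 0.0926). With these libraries paired by number it did (adjusted p = 0.00824).

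Ccr1, a receptor for Ccl3, Ccl5, Ccl6 and Ccl9 on monocytes, macrophages and neutrophils, was lower in the library labelled knockout in each of the 4 pairs. Controls 1 to 4 measured 77.7, 62.8, 51.6 and 129 CPM, and their same-numbered partners 22.2, 23.8, 21.9 and 75.2. Divided by the control of their pair, these came to 0.286, 0.379, 0.424 and 0.582. The groups overlapped because the libraries numbered 4 were the highest of each group, and the exact two-sided permutation p over all 8 was 0.0857, where 0.0286 is the smallest possible. Over all 8 libraries the log2 fold change was −1.17 (SE 0.49, edgeR adjusted p = 0.986), and paired by number Ccr1 fell by 1.30 (SE 0.17, adjusted p = 0.0386). That call was lost without number 1, 2 or 3 (adjusted p = 0.168, 0.253 and 0.337) and held without number 4 (5.65e-05). Without number 4 the means were 64.0 ± 13.1 and 22.6 ± 1.02 CPM (SD, n = 3 each), and Ccr1 fell by 1.50 (log2, SE 0.15, edgeR adjusted p = 0.000739).

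Ccr2, the receptor for Ccl2 that brings monocytes out of the marrow, was a low-count gene with 58 to 370 counts per library. Controls 1 to 4 measured 15.6, 16.8, 13.5 and 6.57 CPM, and knockout-labelled 1 to 4 measured 20.5, 20.1, 19.3 and 4.22. Both libraries numbered 4 were below all others. Over numbers 1 to 3 the groups did not overlap and Ccr2 rose by 0.39 (log2, SE 0.11, edgeR adjusted p = 0.0426), and over all 8 libraries the value was 0.29 with an SE of 0.50. Of its 50-base stretches 1.91% are shared with other genes.

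Cx3cr1 (chromosome 9, 119901616 to 120069879, minus strand), the fractalkine receptor of monocytes and resident macrophages, was similar in 7 libraries. Levels were 232, 153, 174 and 171 CPM for controls 1 to 4, and knockout-labelled 1 to 4 measured 199, 197, 177 and 37.9. Knockout-labelled 4 was thus far below all 7 others, and the remaining libraries overlapped. The log2 fold change was −0.26 (SE 0.46) over all 8 and 0.037 in numbers 1 to 3, with an interval there of −0.32 to 0.40. Neither passed (edgeR adjusted p = 0.9999 and 0.902). An antisense gene, Gm33858, shares 78 of its exon bases.

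Cxcr4 (chromosome 1, 128588199 to 128592293, minus strand) differed by library number and did not pass the threshold between the groups. Controls 1 to 4 measured 86.8, 72.7, 76.9 and 352 CPM, and knockout-labelled 1 to 4 measured 91.1, 78.7, 92.7 and 315. The groups overlapped, and the libraries numbered 4 were far above the rest in both. Paired by number the log2 fold change was 0.072 with an interval of −0.12 to 0.26 (edgeR adjusted p = 0.654).

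Ackr3 (chromosome 1, 90203980 to 90216751, plus strand) was per kilobase the lowest of the 9 genes in numbers 1 to 3, while Ccr2 was lower in both libraries numbered 4, and it had 20 to 152 counts per library. The 4 controls measured 1.75, 4.10, 2.27 and 10.6 CPM, and knockout-labelled 1 to 4 measured 3.85, 1.20, 1.11 and 8.74. Like Cxcr4 it was highest in the libraries numbered 4 of both groups. Its log2 fold change of −0.33 had an interval of −2.23 to 1.56, so falls and rises within that range were both compatible with these values.

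The difference between the groups took opposite signs in pair 4 and in pairs 1 to 3 for several of these genes. For Fpr2 the log2 difference was −2.63, −1.72 and −2.61 in pairs 1 to 3 and 0.30 in pair 4. For Fpr1 it was −1.42, −0.88 and −1.46 against 0.34, and for C5ar1 −0.73, −0.50 and −0.59 against 0.29. Ccr2 went from 0.40, 0.26 and 0.51 to −0.62. Ccr1 was negative in all 4 pairs, at −1.80, −1.40, −1.23 and −0.78. The difference of pair 4 from the rest was tested over all genes with an interaction term, a choice made after the data were seen and with 1 library per group in number 4 assumed to vary like the others. Of all genes 3.68% passed (1.79% lower and 1.89% higher), and of the 9 receptor genes C5ar1 (0.90, SE 0.14, edgeR adjusted p = 0.0131), Fpr1 (1.62, SE 0.32, adjusted p = 0.0459) and Cx3cr1 (−2.20, SE 0.31, adjusted p = 0.0171) did. Fpr2 (2.69, SE 0.52, adjusted p = 0.0561), Ccr2 (−1.02, adjusted p = 0.0662) and Ccr1 (0.72, adjusted p = 0.218) did not.

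**Figure D3:**
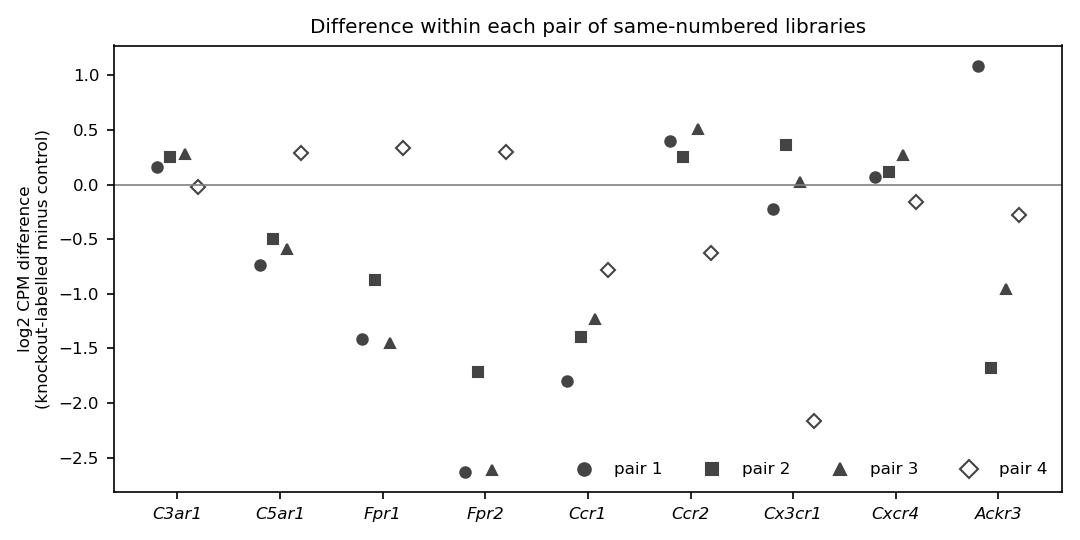
Log2 CPM of the library labelled knockout minus that of the control with the same number, for each receptor gene and pair, with an open diamond for pair 4. Fpr1, Fpr2 and C5ar1 lie below 0 in pairs 1 to 3 and above it in pair 4, and Ccr1 lies below 0 in all 4 pairs.

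Markers of cell types that carry these receptors moved as follows in numbers 1 to 3. The summed macrophage markers ranged over 36822 to 48047 CPM for controls against 37136 to 41268 for knockout-labelled libraries. Of the 23, 2 fell, the integrin gene Itgam (−0.67 on the log2 scale) and the endotoxin co-receptor gene Cd14 (−0.66). Another 2 rose, Mertk (0.41) and the mannose receptor gene Mrc1 (0.44). Over all genes 6.29% were called lower and 7.78% higher, and these shares also stand beside the other marker calls below. With macrophage marker counts as library size, Fpr2, Fpr1 and Ccr1 still fell, at −2.22, −1.11 and −1.36 (edgeR adjusted p at or under 0.00229). C5ar1 (adjusted p = 0.0535) and Ccr2 (adjusted p = 0.153) no longer passed, beside 731 of 12919 genes called with that scaling. Lyz2 was the largest part of the macrophage sum and of that scaling, at 17736 to 24427 CPM for controls 1 to 3 against 16416 to 18887. Its own log2 fold change was −0.30 (edgeR adjusted p = 0.182). The summed neutrophil list measured 317 to 381 CPM for controls against 120 to 128. Nearly all of that was Mmp8, a neutrophil collagenase, at 314 to 378 against 116 to 125 CPM, while the highest Ly6g value of any library was 0.111 CPM. The 6 inflammatory monocyte markers together measured 201 to 264 CPM for controls against 338 to 388, and of them F13a1 rose (0.85). Of 11 osteoclast markers, 8 of them tested, Dcstamp (−2.19, edgeR adjusted p = 0.0118) and Itgb3 (−0.94, adjusted p = 0.0256) fell and Atp6v0d2 (0.97, adjusted p = 0.0144) rose. The dendritic cell list summed to at most 2.45 CPM. What part these marker values have in the receptor values was not tested.

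Of 19 ligand genes of these receptors 13 were tested, and over all 8 libraries none passed with edgeR, with the smallest unadjusted p for Ccl3 (log2 fold change 0.74, SE 0.28, adjusted p = 0.897), Ccl2 (0.40, SE 0.17), Anxa1 (−0.31, SE 0.16) and Cx3cl1 (−0.64, SE 0.35). Paired by number 1 fell, Ccl5, and 0 rose, beside 1.18% of all genes lower and 1.31% higher. Ccl5 stayed at 1.81 CPM or less outside the libraries numbered 4. Without number 4, 5 fell (Ccl6, Ccl9, C3, Cx3cl1 and Saa3) and 2 rose (Ccl3 and Ccl4), beside 6.29% of all genes lower and 7.78% higher. The median over the 13 there was −0.46, against −0.0046 over all genes tested.

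Among ligands of Ccr1, Ccl6 and Ccl9 were the most abundant in numbers 1 to 3. Ccl9 measured 317, 270, 288 and 980 CPM for controls 1 to 4 against 125, 135, 131 and 966 for knockout-labelled 1 to 4. It fell by 1.16 (log2, SE 0.07, edgeR adjusted p = 0.000146) in numbers 1 to 3 and was high in both libraries numbered 4. Ccl6 measured 259, 234, 249 and 208 CPM for controls 1 to 4 against 120, 140, 132 and 405, and fell by 0.92 (SE 0.07, adjusted p = 0.000231) in numbers 1 to 3. Ccl3 went the other way, with 10.2, 7.59, 9.43 and 16.5 CPM for controls 1 to 4 against 21.6, 17.6, 20.8 and 12.8, and rose by 1.14 (SE 0.14, adjusted p = 0.00114) in numbers 1 to 3. The related Ccl4 rose by 1.32 (SE 0.25, adjusted p = 0.00913), with 1.59 to 1.97 CPM over controls 1 to 3 against 3.31 to 4.96. Ccl5, which also binds Ccr1, measured 167 CPM for control 4 and 57.9 for knockout-labelled 4, and no more than 1.81 for any other library.

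**Figure D4:**
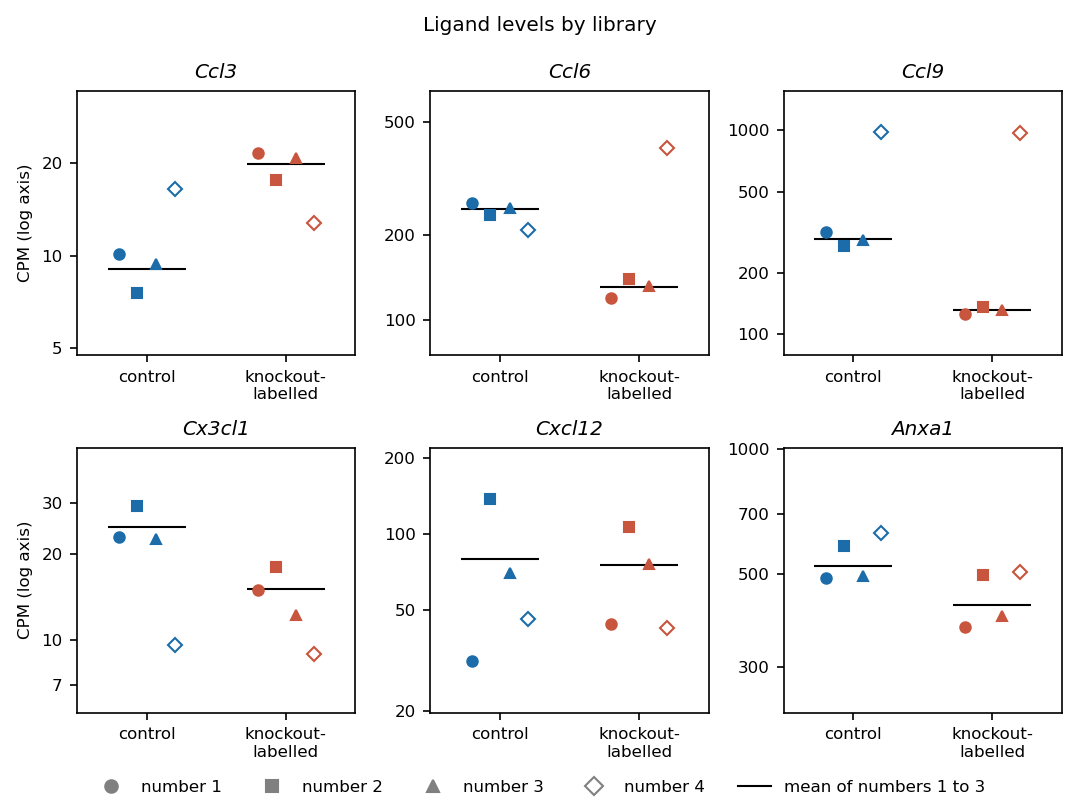
CPM on a log axis of 6 ligand genes by group, with 1 point per library, an open diamond for number 4 and a line at the mean of numbers 1 to 3. Ccl6 and Ccl9 of the libraries labelled knockout lie below the controls in numbers 1 to 3 and Ccl3 above them, while Cxcl12 overlaps.

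The fractalkine gene Cx3cl1, whose product is the ligand of Cx3cr1, measured 22.5 to 29.2 CPM over controls 1 to 3, with no overlap with knockout-labelled 1 to 3 (15.1 ± 2.91 CPM, SD, n = 3), and fell by 0.72 (log2, SE 0.16, edgeR adjusted p = 0.022). Cxcl12 ran from 31.5 to 137 CPM over the 8 libraries with overlap and a log2 fold change of −0.081 (SE 0.49). Anxa1, a formyl peptide receptor ligand that limits inflammation, measured 492 to 629 CPM over the 4 controls against 373 to 506. Its value of −0.31 in numbers 1 to 3 did not pass (edgeR adjusted p = 0.138), but it did with these libraries paired by number (−0.31, SE 0.053, adjusted p = 0.00193). Saa3, an acute-phase ligand of Fpr2, measured 2.02 to 5.77 CPM over controls 1 to 3 against 0.50 to 1.49, and fell by 2.36 (SE 0.54, adjusted p = 0.0253), while control 4 reached 776 CPM and knockout-labelled 4 reached 807. C3, the precursor of the C3ar1 ligand, fell by 1.08 (SE 0.18, adjusted p = 0.0102), with 39.9 to 62.4 CPM over controls 1 to 3 against 24.0 to 28.8, while control 4 reached 3157 CPM and knockout-labelled 4 reached 2772. Hc, the gene of complement C5, reached 5 counts in its highest library.

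Of 27 other chemoattractant receptor genes 12 were expressed enough to test. Over all 8 libraries 0 passed with or without pairing, beside 2.49% and 0% of all genes called. The smallest unadjusted p belonged to Cxcr3 (log2 fold change 0.35, SE 0.22), Cxcr6 (−1.05, SE 0.77), the chemerin receptor gene Cmklr1 (0.28, SE 0.24) and the scavenging receptor gene Ackr4 (−0.81, SE 0.74). Without number 4, 1 fell, Cxcr6 (−1.09, edgeR adjusted p = 0.0373), and 2 rose, the platelet-activating factor receptor gene Ptafr (0.43, adjusted p = 0.0209) among them. This stood beside 6.29% of all genes lower and 7.78% higher. Paired as well, 2 fell and 2 rose, beside 11.9% of all genes lower and 12.3% higher, and Ackr4 was then among the falls (−0.78, SE 0.21, adjusted p = 0.0243). The neutrophil receptor genes Cxcr1 and Cxcr2 reached 2 and 4 counts in their highest libraries.

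The 31 genes of the shared signalling route, from G protein subunits to regulators of G protein signalling, were all tested. Over all 8 libraries 0 passed with edgeR, with the smallest unadjusted p for the G protein subunit gene Gng2 (log2 fold change 0.37, SE 0.15), the receptor kinase gene Grk5 (−0.42, SE 0.18), the Rac activator gene Dock2 (0.26, SE 0.14) and Rgs16 (−1.24, SE 0.66), a regulator that ends G protein signals. Paired by number Gng2 and Rgs18 rose and 0 fell, beside 1.31% of all genes higher and 1.18% lower. Without number 4, 4 fell (Fgr, Rgs16, Grk5 and Grk6) and 4 rose (Rgs18, Grk3, Plcb2 and Gng2), with a median over the 31 of −0.0079 and beside 6.29% of all genes lower and 7.78% higher. Paired as well, 6 fell and 7 rose, Dock2 (0.28) among them, beside 24.2% of all genes called. Fgr, a Src-family kinase of myeloid cells, fell by 1.60 (SE 0.11, adjusted p = 0.000146), and Rgs16 fell by 1.54 (SE 0.18, adjusted p = 0.00246). The abundant Gi subunit gene Gnai2 ranged over 916 to 1078 CPM with a log2 fold change of −0.015 (SE 0.12).

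The tested genes whose profile over the 8 libraries was nearest to each member were found from the root mean square difference of log2 CPM centred on each gene's own mean, as a description that draws on the same libraries. Nearest to Fpr2 was Fgr (0.37), then the lectin gene Clec4e (0.42) and the neutrophil chemokine gene Cxcl2 (0.43). Nearest to Fpr1 were the paired receptor genes Pilrb1 (0.13) and Pilrb2 (0.19) and then Dmwd (0.20), and nearest to C5ar1 were Itgam (0.071), Bbs12 (0.073) and Card19 (0.11). Itgam, which encodes the alpha chain of complement receptor CR3, measured 1586 to 1945 CPM over the 4 controls, 1072 to 1120 over knockout-labelled 1 to 3 and 1833 for knockout-labelled 4. For Ccr1 they were Gm11110 (0.20), Ankrd66 (0.31) and the long noncoding RNA Neat1 (0.31), the first and second of these at 5.45 CPM or less in every library. Ccr2 was nearest to Cd83, Sulf2 and Adcy3 (0.11 to 0.13) and Cxcr4 to the glycolytic gene Pgam1, the immunoproteasome gene Psmb9 and the cation channel gene Trpm2 (0.10 to 0.12). Cx3cr1 was nearest to Trim34a, Trim30d and Galnt12 (0.19 to 0.29), each of which was also lowest in knockout-labelled 4. C3ar1 was nearest to Dtx3l, Ppm1h and Sgpl1 (0.018 to 0.037), the last of which encodes the lyase that degrades sphingosine 1-phosphate, and Ackr3 to C2, Sh3d21 and Zfp811 (0.35 to 0.44). A small difference is easier to reach for a gene that varies little. The SD of log2 CPM was 0.13 for C3ar1, 0.83 for Ccr2 and 1.18 for Ackr3, so these differences do not compare closeness between members.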

How the data were processed

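RNA of 4 control libraries and 4 labelled knockout was analysed. The authors deposited whole-number read counts per gene symbol, made with STAR 2.7.11b and featureCounts on mm10 (GRCm38), per the submitters' processing notes. Strand use, annotation and treatment of reads with several alignments are not given in the sources used here. The 9 genes and all lists were chosen with earlier results of these data known.

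Counts were analysed with edgeR 4.0.16 (R 4.3.3): filterByExpr, TMM, and a robust quasi-likelihood F test of genotype, with Benjamini-Hochberg adjustment over all tested genes and a threshold of 0.05. Log2 CPM used a prior count of 2. Alternatives were DESeq2 1.42.0, limma 3.58.1 voom, other scalings, no filter, a replicate block and libraries left out. On simulated counts for numbers 1 to 3, with 12799 genes, edgeR without a block recovered 84% of 100 genes changed by 1 log2 unit, and for all 8 libraries, with 12716 genes, 14% of 100 such genes, with 0 false calls in either. With the block these shares were 96% and 86%, with 25 and 19 false calls over both fold sizes simulated. Changed genes were drawn only above a minimum mean count and changed alike in every pair, unlike several of the receptor genes. The simulated means were set per number, as the block assumes, so these shares need not hold for the real libraries. Same-numbered libraries deviated together from their group means (r 0.460 to 0.829, and 0.161 to 0.376 among numbers 1 to 3, all above 0.1). Numbers were therefore taken to pair libraries, from the data and not from a label. Libraries of different number were not correlated for comparison. As the libraries numbered 4 stood apart in both groups, the first range can be high without any pairing of numbers 1 to 3. All results paired by number rest on this assumption of pairing. Pairs within a group differed beyond sampling noise (chi-square per degree of freedom 8.56 to 307). Nothing says that libraries came from separate animals, so p-values measure spread between libraries, which may be technical. Named genes were the 9, Sphk2, up to 4 per list with the smallest unadjusted p and the 3 nearest profiles per member. List members named for numbers 1 to 3 were chosen after their values were seen. Loci and exon lengths came from GENCODE M21. RefSeq held windows for 9 of 9 genes. The result for 1 gene of the lists is not reported here.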

Additional observations from a re-analysis of the deposited data

Results flagged for a closer look

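In 20 groups of 4 libraries (10 genes in each genotype group) the highest or lowest library was looked for, and chance alone marks about 1 in 20 such groups. Knockout-labelled 4 stood apart from the other 3 libraries of its group for Ccr1 (75.2 CPM against 21.9 to 23.8), Fpr1 (102 against 35.1 to 36.5), Fpr2 (98.6 against 7.55 to 7.78), C5ar1 (407 against 224 to 239), Cxcr4 (315 against 78.7 to 92.7) and Sphk2 (131 against 69.7 to 72.3). It was low for Ccr2 (4.22 CPM against 19.3 to 20.5) and Cx3cr1 (37.9 against 177 to 199). Among controls, number 4 stood apart for Cxcr4 (352 CPM against 72.7 to 86.8) and number 1 for C5ar1 (385 against 334 to 339).

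The genotype difference of pair 4 departed from that of pairs 1 to 3 by an edgeR interaction term, adjusted over all genes, for C5ar1 (0.90 on the log2 scale), Cx3cr1 (−2.20) and Fpr1 (1.62). The term rests on 1 library per group in number 4, and number 4 was set apart after the data were seen.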

How the results depend on the processing

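The count of genes past the threshold over all 8 libraries was 0 and became 319 with the replicate block, 176 with DESeq2, 1817 in numbers 1 to 3 and 3132 there with the block. Leaving out 1 library gave 0 to 38 (38 without control 4 and 24 without knockout-labelled 4), and leaving out 1 number with the block 0 to 3132. Receptor genes past it numbered 0, then 1 with the block, 5 in numbers 1 to 3 and 6 there with the block. Leaving out 1 library gave 0 throughout, and 1 number with the block 0 to 6. In numbers 1 to 3 the count of all genes was 731 (153 lower and 578 higher) with macrophage marker counts as library size, 3132 with the block and 838 to 2117 with 1 library left out, and that of receptor genes 3 with the macrophage scaling and 4 to 5 with 1 left out.

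Cxcr4 turned positive with the block (0.072), limma-voom (0.074) and numbers 1 to 3 (0.15, and 0.15 with the block). With the block it was 0.072, 0.065, 0.0062 and 0.15 without numbers 1, 2, 3 and 4, and without single libraries −0.75 to 0.87. Cx3cr1 turned positive in numbers 1 to 3 (0.037, and 0.057 with the block) and ran from −0.41 to 0.065 when 1 library was left out, or −0.087 to 0.23 within numbers 1 to 3. Ackr3 ran from −1.19 to 0.44, and from −1.22 to 0.021 within numbers 1 to 3. Sphk2 ran from −0.32 to 0.21, and was 0.0052 with the block without number 3. The causes were not tested. Ackr3 (20 to 152 counts per library) and Ccr2 (58 to 370) had the fewest counts of the 9.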
